A study of Mus musculus with 6 samples.

Results

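Genes that make prostaglandins, carry them, break them down or bind them were read in mouse hepatic stellate cells, the vitamin A storing pericytes of the liver that turn into matrix-producing myofibroblasts after injury. The members are 10 listed genes, namely Ptgs1, Ptgs2, Ptges, Ptges2, Ptgis, Pla2g4a, Hpgd, Ptger2, Ptger4 and Ptgfr. They were taken from the value table through all probe sets that the platform annotation gives to one of these symbols alone. This found 18 of 45101 probe sets and 9 of the 10 genes, among 18194 genes in all, and Ptgs1, which encodes cyclooxygenase 1, was not analysed here. All cells carried the transgene CMV-rtTA;TRE-GFP-shRNA.p53.1224 on a C57Bl/6 background. In it a CMV promoter drives the doxycycline-dependent activator rtTA, so that the drug turns on a hairpin RNA that silences p53, along with green fluorescent protein. The 3 proliferating samples were given 1 ug/ml doxycycline and carry the label p53 knockdown. The 3 senescent samples have control as their treatment and carry the label p53 expression. The state of the cells, the p53 label and the treatment differ together between the groups. Their parts in a change cannot be told apart. Whether the samples of a group are separate cultures or animals is not stated, and p-values here then cover the spread between these samples alone, which may be technical.

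Prostaglandins are short-lived lipid signals made from arachidonic acid. A phospholipase frees the acid from membranes, a cyclooxygenase turns it into prostaglandin H, and separate synthases turn that into prostaglandin E, prostacyclin and other prostanoids. These leave the cell, act on receptors at the surface of the same or neighbouring cells, and are inactivated after uptake. In the liver, prostanoids are known to act on stellate cell contraction, on matrix production and on immune cells nearby.

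Between senescent and proliferating cells, 2 listed genes at the start of this route were higher and a receptor gene was lower in the senescent group. RNA of Ptgs2, the inducible cyclooxygenase, was 3.11-fold higher and RNA of Pla2g4a, the cytosolic phospholipase that releases arachidonic acid, 1.71-fold higher. The call of Pla2g4a ended when arrays were scaled to probe sets for RNAs meant to be added before labelling. RNA of Ptger4, a prostaglandin E receptor, was 1.64-fold lower. RNA of Ptges, the inducible prostaglandin E synthase, was 1.54-fold lower, a call that rests on 1 of its 3 probe sets. Of the 9 genes, 2 rose, 2 fell and 5 did not pass the threshold of 0.05 on p-values from limma, adjusted over all genes by Benjamini-Hochberg. Among all genes 20.0% passed, 9.49% higher and 10.5% lower. The median log2 change (senescent minus proliferating) was -0.17 over the 9 genes and -0.0018 over all genes.

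The 250 bases before the annotated start of the 3 genes whose calls held with any 1 array left out are shown, since Ptgs2 and Pla2g4a rose and Ptger4 fell. They come from RefSeq with build GRCm38.p6, which held such a window for 9 of the 10 listed genes, Ptgis being without an entry. Windows are written 5′ to 3′ on the strand of the gene, and capitals mark matches on either strand to the motifs searched. These were the TATA box (TATAAA), the E-box (CACGTG), the cyclic AMP response element (TGACGTCA) and its half-site (TGACG), the C/EBP motif (TTNNGNAA), the AP-1 motif (TGANTCA), the GC box (GGGCGG), and, by name, the NF-kB motif and the p53 half-site.
Ptgs2 (chr1:150099781-150100030, plus strand): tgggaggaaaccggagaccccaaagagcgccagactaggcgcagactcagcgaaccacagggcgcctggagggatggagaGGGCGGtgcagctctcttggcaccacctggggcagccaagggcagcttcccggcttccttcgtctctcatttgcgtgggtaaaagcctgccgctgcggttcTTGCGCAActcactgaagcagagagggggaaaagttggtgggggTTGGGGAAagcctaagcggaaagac
Pla2g4a (chr1:149961291-149961540, minus strand): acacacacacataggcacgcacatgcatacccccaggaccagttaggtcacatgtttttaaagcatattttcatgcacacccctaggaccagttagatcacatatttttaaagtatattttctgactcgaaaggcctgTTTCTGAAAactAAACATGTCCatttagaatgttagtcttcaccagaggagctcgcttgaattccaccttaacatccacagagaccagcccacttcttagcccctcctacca
Ptger4 (chr15:5244188-5244437, minus strand): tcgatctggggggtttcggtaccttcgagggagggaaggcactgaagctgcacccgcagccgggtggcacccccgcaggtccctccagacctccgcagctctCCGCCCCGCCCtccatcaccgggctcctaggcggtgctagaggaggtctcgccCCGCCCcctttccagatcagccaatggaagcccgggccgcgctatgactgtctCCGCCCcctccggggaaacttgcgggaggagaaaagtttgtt
The window of Ptgs2 held 1 GC box and 2 C/EBP motifs, the upstream one a palindrome that begins 69 bases before the start. That of Pla2g4a held 2 overlapping C/EBP motifs, which begin 112 and 111 bases before the start, and 1 p53 half-site, which begins 100 bases before it. That of Ptger4 held 4 GC boxes, of which 2 overlap by a base, and no other motif searched. Over 32841 windows of the same length, 36.9% held a C/EBP motif, 32.7% a GC box and 7.13% a p53 half-site. The motifs with no match in these 3 windows were the TATA box (12.4% of all windows), the E-box (6.02%), the response element (1.55%) and its half-site (17.8%), AP-1 (6.75%) and NF-kB (3.9%). These are matches of letters in a short window, and the arrays did not measure binding. Bases after the annotated start and further upstream were not searched. A motif without a match here may thus lie elsewhere in the promoter. In the RefSeq annotation Pla2g4a and Ptgs2, the 2 members that rose, are neighbours on chromosome 1, and between them lie only a pseudogene (Gm19136) and a noncoding RNA gene (Ptgs2os), neither with a probe set named here.

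All values below are log2 expression levels as the authors made them with RMA, and a gene is read from its brightest probe set. Background was taken as 5.57 log2 units, the 95th percentile of the mean levels of 44 olfactory receptor probe sets. RMA makes the arrays share one distribution of values, so each change is relative to the bulk of genes. The 24 probe sets for poly-A spike-ins, bacterial RNAs meant to be added before labelling, read 0.60 log2 units higher on the senescent arrays. Whether equal amounts were added to the samples was not tested. Scaling the arrays to these probe sets moved the median change of all genes to -0.60. Values on that scale are given for members above background whose call it altered and for other rises that it ended. In the limma fit there, adjusted p-values of the genes named here followed the size of the change, whatever the spread of the gene. Proliferating replicate 1 stood apart from the other 5 arrays on the second principal component (15.9% of the variance), at 28.6 against -22.1 to 11.7. Where leaving it out ended or made a call of a member, of a further gene called with all arrays, or of Nr4a1, this is given. For other genes no value without it is given.

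The cells were checked against markers of their label and of other liver cells. Of 14 stellate cell and myofibroblast markers, 10 lay above background on average in each group, among them Acta2 at 14.45 and Des at 6.96 in proliferating cells. Hgf was among the 10 in proliferating cells only, and Ngfr in senescent cells only. Of the 14, 5 fell (Pdgfrb by 1.30 log2 units, Col3a1 by 0.93, Hand2 by 0.85, Col1a1 by 0.56 and Col1a2 by 0.49) and 0 rose in the brightest probe set. The mean level of the 14 was 9.29 to 9.32 on the proliferating and 8.91 to 8.99 on the senescent arrays. In the limma fit over probe sets a dimmer set of Acta2 passed as higher, from 8.06 to 9.30 (1.24, adjusted p = 0.00257). Its brightest set gave 0.12 and its dimmest, with means below background, -0.41, and neither passed. Lrat, Reln and Lhx2, which mark quiescent stellate cells, lay below background in both groups. All 6 mesothelial markers lay above background in both groups, and 2 of them rose (Msln by 0.79 log2 units and Krt19 by 0.58) while 3 fell (Lrrn4 by 1.80, Wt1 by 1.11 and Gpm6a by 0.57). Their mean level was 10.68 to 10.99 on the proliferating and 10.37 to 10.44 on the senescent arrays. The log2 of their summed linear values was 13.84 to 14.06 and 13.79 to 13.83. Upk3b, also mesothelial, read 12.61 and 12.42, and the part of such cells in the results below was not tested. Of 11 macrophage markers 1 rose, Csf1r, with a log2 change of 0.35. Csf1r, Clec4f, Fcgr1, Lyz2 and Cd68, 5 of the 11, lay above background on average in each group. Adgre1, Ptprc, Mrc1, C1qa and C1qb lay below it. The mean level of the macrophage markers was 5.16 to 5.30 and 5.33 to 5.43, and the log2 of their sum 9.24 to 9.37 and 9.49 to 9.51. Of 8 hepatocyte markers 3 lay above background in each group (Ttr, Apoa1 and Hnf4a), and Alb lay below it. The mean level of the 8 was 5.15 to 5.53 and 5.12 to 5.38. Of 8 endothelial markers 2 lay above background in proliferating and 3 in senescent cells, with means of 5.53 to 5.66 and 5.67 to 5.71. Emcn read 8.69 and 8.94 and Kdr 7.10 and 7.25, above background in both groups. Pecam1 lay below background, and Cdh5, which also marks endothelium, rose from below it to 5.74. In whole cultures, fewer cells of a type and less RNA per cell cannot be told apart.

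Pla2g4a (Entrez gene 18783) encodes cytosolic phospholipase A2 alpha, which cuts arachidonic acid out of membrane phospholipids when calcium rises. Its level was 11.32, 11.50 and 11.38 on the proliferating arrays and 12.09, 12.33 and 12.09 on the senescent arrays. Every senescent array lay above every proliferating one. The log2 change was 0.77 ± 0.09 (SE, n = 3 per group, adjusted p = 0.000885 in the limma fit over all genes), with a 95% interval of 0.56 to 0.98. By size of rise it was number 304 of 18194 genes. It has a single probe set, so no second reading of this RNA was at hand. With arrays scaled to the spike-ins the change was 0.18 (adjusted p = 0.396) and the call ended.

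Ptgs2 (Entrez gene 19225) encodes cyclooxygenase 2, which makes prostaglandin H in cells stirred by cytokines, growth factors or stress. Its brightest probe set read 11.47, 11.22 and 11.01 on the proliferating arrays and 12.91, 13.04 and 12.67 on the senescent arrays. The groups did not overlap, and they lay further apart than the arrays within either group. The change was 1.64 ± 0.14 (log2, SE, n = 3 per group, adjusted p = 0.00017 in the limma fit over all genes), with an interval of 1.33 to 1.95, and by fitted rise it was number 34 of 18194 genes. The dimmer probe set read 7.72, 7.77 and 7.67 in proliferating and 9.69, 9.85 and 9.35 in senescent cells. In a fit over 45037 probe sets that second set gave 1.91 ± 0.12 (adjusted p = 0.00013) and the first 1.64 (adjusted p = 0.000381), so both readings of the gene passed. With 1 array left out at a time the change ran from 1.53 to 1.76, and on the spike-in scale it was 1.04. The call held in all 15 alternatives tried.

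**Figure D1:**
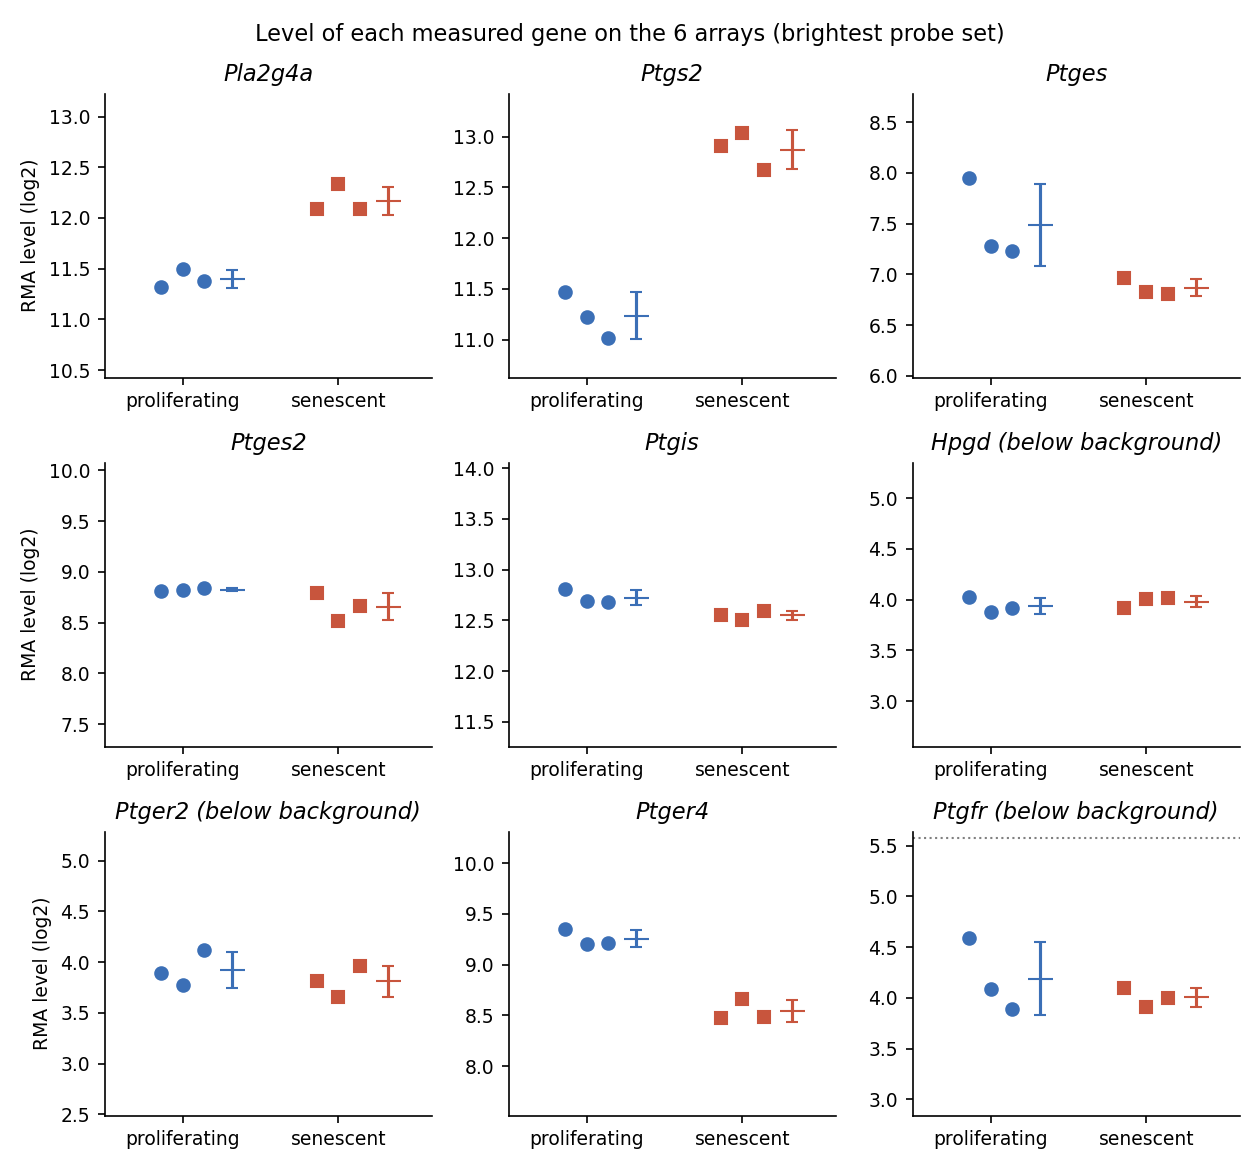
RMA level (log2, vertical axes with the same span but different ranges) of the 9 measured genes on the 3 proliferating (circles) and 3 senescent (squares) arrays, drawn from left to right as replicates 1 to 3, with bars for mean ± SD and a dotted line for background where it falls in the panel. Pla2g4a and Ptgs2 read higher on every senescent array, Ptger4 and Ptges lower, and Hpgd, Ptger2 and Ptgfr lay below background throughout.

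None of the 3 listed synthase genes, which act on the product of cyclooxygenase, was called higher. Ptges (Entrez gene 64292) encodes microsomal prostaglandin E synthase 1, the synthase usually induced together with cyclooxygenase 2. It read 7.96, 7.28 and 7.23 on the proliferating and 6.97, 6.83 and 6.81 on the senescent arrays. The groups did not overlap, but proliferating replicate 1 lay well above the other 2 arrays of its group. The change was -0.62 ± 0.18 (log2, SE, n = 3 per group, adjusted p = 0.0427 in the limma fit over all genes). Without proliferating replicate 1 it was -0.39 (adjusted p = 0.0173), and the call ended without senescent replicate 1, 2 or 3 (-0.67, -0.60 and -0.59, with adjusted p of 0.0828, 0.129 and 0.125). In the fit over probe sets none of its 3 passed. The first gave -0.62 (adjusted p = 0.0646), the second -0.14 (adjusted p = 0.428) and the dimmest -0.29 (adjusted p = 0.397), and the groups overlapped in the last 2. The call also ended with the mean of the 3 probe sets (-0.35, adjusted p = 0.122) and with arrays centred on genes of middle level (-0.55, adjusted p = 0.0535).

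Ptges2 (Entrez gene 96979), a membrane-bound prostaglandin E synthase made in most cells, read 8.81, 8.82 and 8.84 in proliferating and 8.79, 8.52 and 8.66 in senescent cells. The difference was -0.17 ± 0.08 (adjusted p = 0.221 in the limma fit), with an interval of -0.36 to 0.03. Ptgis (Entrez gene 19223), the cytochrome P450 that makes prostacyclin, read 12.81, 12.69 and 12.68 in proliferating and 12.55, 12.50 and 12.60 in senescent cells. Every senescent array was lower, by a difference of -0.18 ± 0.07 (interval -0.34 to -0.01) that did not pass (adjusted p = 0.133 in the limma fit). It passed with a robust variance trend (adjusted p = 0.035), and both Ptges2 and Ptgis passed as lower on the spike-in scale (-0.76 and -0.77). On that scale 15146 of all 18194 genes passed as lower, and the median change of all genes was -0.60. On the array scale, the intervals of these 2 synthases leave out a fall beyond 0.36 and a rise beyond 0.03.

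Hpgd (Entrez gene 15446) encodes the dehydrogenase that starts the breakdown of prostaglandins. Both of its probe sets lay below background on all 6 arrays, the brighter at 3.87 to 4.03 in proliferating and 3.91 to 4.01 in senescent cells. No level can be read from such values.

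Of the 3 listed receptor genes, 1 was read above background. Ptger4 (Entrez gene 19219) encodes EP4, a receptor for prostaglandin E that raises cyclic AMP. It read 9.35, 9.20 and 9.21 on the proliferating and 8.47, 8.66 and 8.49 on the senescent arrays. No senescent array reached the proliferating range. The change was -0.71 ± 0.08 (log2, SE, n = 3 per group, adjusted p = 0.000829 in the limma fit over all genes), with an interval of -0.90 to -0.52. With 1 array left out at a time it ran from -0.77 to -0.66 and kept its call. The other probe set lay below background on all arrays, at 4.84 to 5.13 and 4.03 to 4.89, and gave -0.49 (adjusted p = 0.167 over probe sets).

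Ptger2 (Entrez gene 19217), which encodes EP2, the other prostaglandin E receptor coupled to cyclic AMP, lay below background on all 6 arrays, at 3.77 to 4.12 and 3.66 to 3.96. Ptgfr (Entrez gene 19220), the receptor for prostaglandin F, did so in all of its 5 probe sets, the brightest at 3.89 to 4.59 and 3.92 to 4.10. A gene below background on these arrays may still be transcribed at a level that they do not resolve.

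Across the 9 genes the groups did not overlap for 6, against 37.0% of all genes, and these 6 are also the genes above background. Among all 12659 genes with a group mean above background, 27.6% passed the test. Of the 18 probe sets, 3 passed as higher (both of Ptgs2 and that of Pla2g4a) and 1 as lower (of Ptger4). Of all probe sets 12.4% passed, 5.99% as higher and 6.39% as lower. The groups did not overlap for 7 of the 18, against 31.0% of all probe sets.

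**Figure D2:**
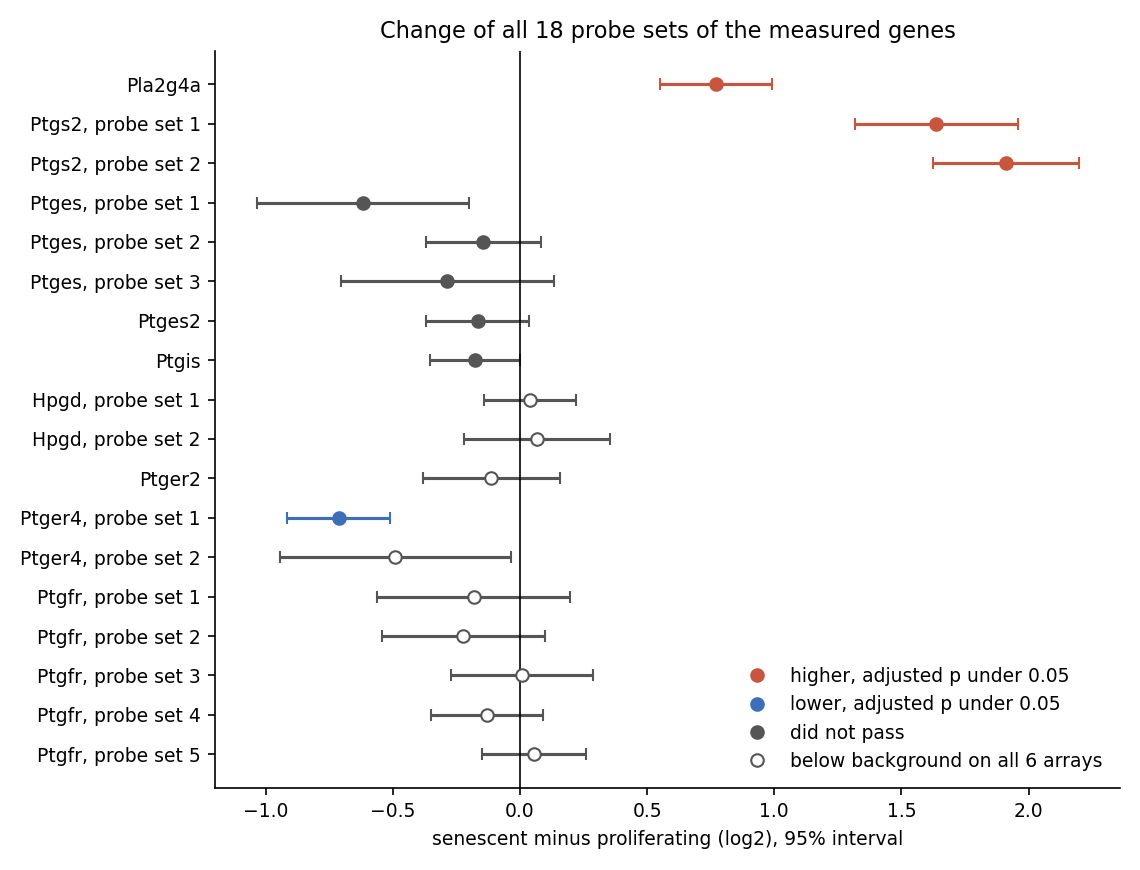
Change from proliferating to senescent (log2) of all 18 probe sets of the 9 measured genes, with 95% intervals from the limma fit over 45037 probe sets. The 3 probe sets of Ptgs2 and Pla2g4a lie to the right of 0 and the brighter one of Ptger4 to the left, while open circles mark probe sets below background on all 6 arrays.

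The rest of the route was read from 8 further lists with 63 measured genes of 69 listed. Of these 8 rose, 8 fell and 47 did not pass, and the median change was -0.01. Over all genes 9.49% rose and 10.5% fell (20.0% in either direction), and the counts of the single lists below stand beside the same shares. Without proliferating replicate 1 the number that rose was 12, without proliferating replicate 2 it was 4, and without proliferating replicate 3 or senescent replicate 1 it was 5. On the spike-in scale the calls of 7 of the 8 that rose ended, and Nr4a2 kept its own. With the mean of all probe sets of a gene, those below background included, calls of Mgll (0.25), Mboat7 (0.07), Ptgfrn (-0.17), Ptgr2 (0.13), Sik1 (-0.28), Creb1 and Crem ended.

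Genes that supply arachidonic acid or put it back into membranes came first. Of 10 measured, 3 rose and 1 fell, with a median change of 0.16. Pla2g5, a secreted phospholipase, read 5.21, 5.34 and 4.96 in proliferating cells, all below background, and 5.92, 5.72 and 5.83 in senescent cells. It was thus at least 1.19-fold higher, taking the background as the level of the proliferating group, or at least 1.15-fold without senescent replicate 1. The fitted change was 0.66 (adjusted p = 0.00395, limma). On the spike-in scale the fitted change was 0.06 (adjusted p = 0.778) and the call ended. That scale also ended the calls of the next pair, Mgll (-0.20) and Mboat7 (-0.24). Mgll, a lipase that frees arachidonic acid from monoacylglycerol, had a change of 0.40 (adjusted p = 0.0409) and Mboat7, which puts arachidonate into phosphatidylinositol, one of 0.36 (adjusted p = 0.0135). Lpcat3, which puts it into phosphatidylcholine, fell by 0.33 (adjusted p = 0.0205). These 3 small changes each lost their call when certain arrays were left out. For Mgll these were proliferating replicate 1 or 2 or senescent replicate 1 or 3, for Mboat7 proliferating replicate 2 or 3 or senescent replicate 1, and for Lpcat3 proliferating replicate 1 or 2 or senescent replicate 2. Without proliferating replicate 2, 1 of the 10 genes passed, and without senescent replicate 1, 2 did.

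Of 5 other synthases measured, 1 rose and 0 fell. Prxl2b, a prostaglandin F synthase, rose by 0.34 log2 units (adjusted p = 0.0162, limma), a call that ended without proliferating replicate 2 or 3 and on the spike-in scale (-0.26). Tbxas1, thromboxane synthase, differed by -0.05, and Hpgds, the haematopoietic prostaglandin D synthase, lay below background at 4.31 and 4.23.

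Of 9 other receptors and receptor partners, 2 fell and 0 rose. Ptger3, which encodes EP3, a prostaglandin E receptor that lowers cyclic AMP, read 6.62, 5.79 and 5.77 in proliferating and 4.99, 4.89 and 4.61 in senescent cells. Background was not reached on any senescent array, so this probe set was at least 1.4-fold lower, or at least 1.15-fold without proliferating replicate 1. The fitted change was -1.23 (adjusted p = 0.00606, limma), and -0.94 without proliferating replicate 1 (adjusted p = 0.00193). The gene's other probe set had means below background in both groups, at 3.58 and 3.66, and gives no second reading. Ptgfrn, a membrane protein that binds the prostaglandin F receptor, fell by 0.38 (adjusted p = 0.00421), from 10.31 ± 0.02 (SD, n = 3) to 9.93 ± 0.02, and its dimmer probe set gave 0.05. The prostacyclin receptor gene Ptgir had means below background in both groups, at 5.38 and 5.25.

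Of 5 genes of transport and further breakdown, 2 rose and 0 fell. Slco2a1 (Entrez gene 24059), the transporter that takes prostaglandins up into cells, read 9.54, 9.56 and 9.49 in proliferating and 10.54, 10.45 and 10.38 in senescent cells. The groups did not overlap. The change was 0.93 ± 0.07 (log2, SE, n = 3 per group, adjusted p = 0.000128, limma), 1.90-fold, and all 4 of its probe sets passed as higher, with changes of 0.80 to 1.33. On the spike-in scale it was 0.33 (adjusted p = 0.108). Ptgr2, a prostaglandin reductase, had a change of 0.29 (adjusted p = 0.021), which lost its call without proliferating replicate 2 or 3 or any 1 senescent array, and on the spike-in scale (-0.30). The exporter gene Abcc4 had 0.31 (adjusted p = 0.0974). It read 9.51, 9.13 and 9.16 in proliferating and 9.60, 9.68 and 9.47 in senescent cells.

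The lipoxygenase and leukotriene branch, which uses the same fatty acid, had 12 measured genes, of which 1 fell and 0 rose. Alox5ap, the partner that presents arachidonate to 5-lipoxygenase, read 6.49, 6.03 and 6.01 in proliferating and 5.61, 5.49 and 5.79 in senescent cells. Its change was -0.55 (adjusted p = 0.027, limma), with 1 senescent array below background. The call ended without senescent replicate 1 or 2 (adjusted p of 0.0813 and 0.103).

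Transcription factors known to act on Ptgs2 were lower or did not pass. Of 8 measured, 3 fell and 0 rose, with a median change of -0.37. Cebpd (Entrez gene 12609), a C/EBP factor induced by inflammation, read 11.15, 11.41 and 11.51 in proliferating and 9.76, 9.84 and 9.69 in senescent cells. Its change was -1.59 ± 0.10 (adjusted p = 6.27e-05, limma), 3.01-fold lower, while the dimmer probe set gave -0.12. Cebpb fell by 0.44 (adjusted p = 0.0146) and lost its call without senescent replicate 3. Creb1, which binds cyclic AMP response elements, fell by 0.48 (adjusted p = 0.00314) in its brightest probe set, and 2 of its 6 passed, both lower, while the mean of all 6 gave -0.08 (adjusted p = 0.479). Egr1 had -0.66 (adjusted p = 0.0724), Jun -0.29 (adjusted p = 0.0765), Rela 0.19 (adjusted p = 0.133) and Fos -0.23, with Fos at 13.13 on proliferating replicate 1 and at 10.89 to 11.70 on the other 5 arrays.

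Of 6 genes for proteins that stabilise or destroy Ptgs2 messenger RNA, 0 passed in the limma fit. An unadjusted p under 0.05 was found for 2 of the 6, against 5737 of all 18194 genes. The brightest, Zfp36l2, which encodes a protein of the family that destroys such messages, differed by 0.07, and Zfp36 by 0.43 ± 0.39 (SE). Zfp36 read 10.27, 8.99 and 8.39 on the proliferating and 9.69, 9.60 and 9.65 on the senescent arrays. Elavl1, which encodes the stabilising protein HuR, read 11.58 ± 0.07 (SD, n = 3) and 11.53 ± 0.02, with an interval of the difference from -0.21 to 0.11. Tia1, named after its values were seen, encodes an RNA-binding protein that holds back translation. Its brightest probe set gave -0.23 (adjusted p = 0.075, limma), but 2 of its 6 passed as lower in the fit over probe sets. These went from 8.09 to 6.31 (-1.78, adjusted p = 0.00432) and from 6.54 to 6.15 (-0.39, adjusted p = 0.0261).

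Among 8 genes that cyclic AMP induces in many cells, 2 rose and 1 fell. Nr4a2, an orphan nuclear receptor, read 7.55, 6.66 and 6.69 in proliferating and 8.59, 8.27 and 8.18 in senescent cells, a change of 1.38 ± 0.23 (adjusted p = 0.00415, limma). Of its 6 probe sets, 3 passed as higher, and the brightest has the suffix of sets that may match more than 1 transcript. The 3 that did not pass also had means above background, and gave 0.01, 0.27 and 0.29. The set with 0.01 read 7.19 in proliferating and 7.20 in senescent cells. Crem rose by 0.63 (adjusted p = 0.00815), and of its 4 probe sets 2 passed as higher, while the other 2 had means below background. The call ended with the mean of all 4 (0.18, adjusted p = 0.107) and on the spike-in scale (0.04, adjusted p = 0.859). Sik1, a kinase that restrains cyclic AMP responses, fell by 0.67 (adjusted p = 0.0143), and lost its call without senescent replicate 3. Its other probe set had means below background. Nr4a1, named after its values were seen, read 11.10, 8.42 and 8.44 in proliferating and 11.34, 10.92 and 11.03 in senescent cells. Its change of 1.78 did not pass (adjusted p = 0.0889), and without proliferating replicate 1 it was 2.67 (adjusted p = 4.13e-05) and the list had 6 calls. On the spike-in scale the change of Nr4a1 was 1.18 (adjusted p = 9.5e-08, limma). That p-value did not reflect the spread of its proliferating arrays. The brightest probe set of Nr4a3 differed by 0.00. Another of its 3, singled out after its values were seen, passed as higher, from 5.90 to 6.61 (0.71, adjusted p = 0.0109 over probe sets).

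**Figure D3:**
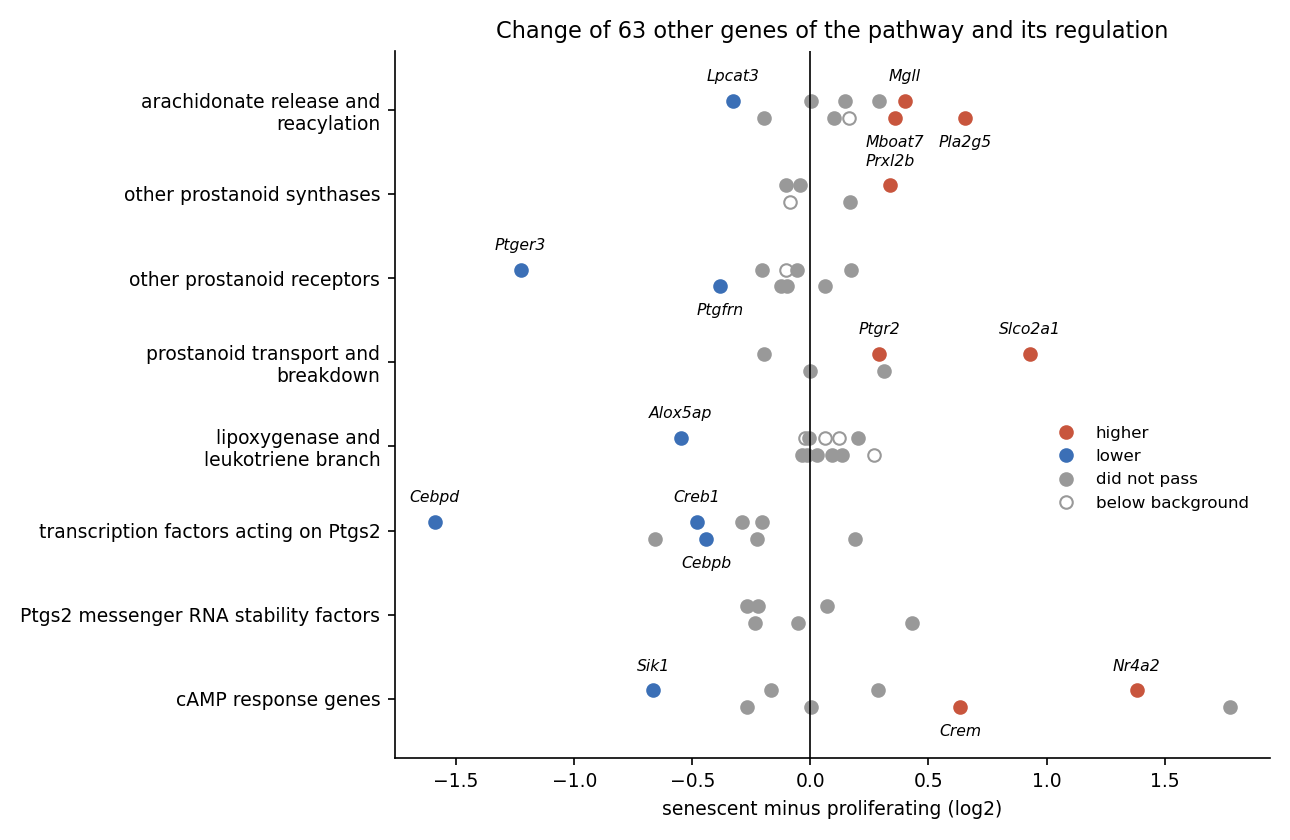
Change from proliferating to senescent (log2) of the 63 measured genes of the 8 further lists, 1 point per gene and 1 row per list, with the names of the 16 that passed. Slco2a1, Nr4a2, Crem and Pla2g5 lie furthest to the right among genes that passed, Cebpd and Ptger3 furthest to the left, and the grey point at 1.78 is Nr4a1.

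**Figure D4:**
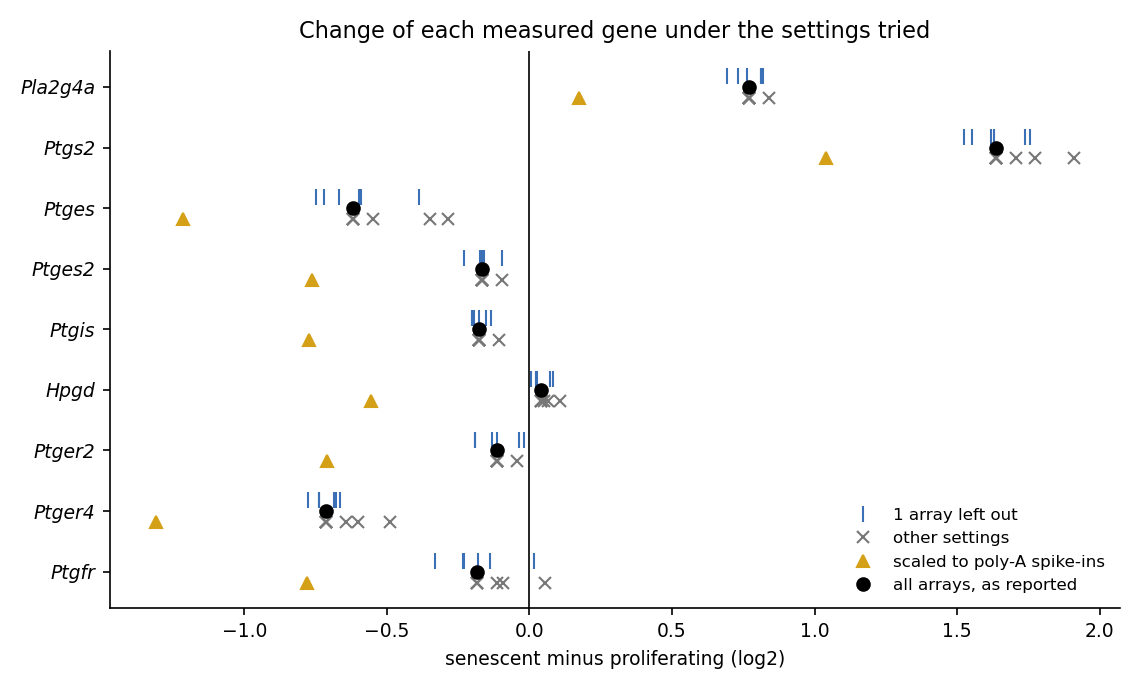
Change from proliferating to senescent (log2) of the 9 measured genes with all arrays (circles), with 1 array left out (ticks), under the other settings (crosses) and with arrays scaled to poly-A spike-ins (triangles). Ptgs2 stays right of 0 and Ptger4 and Ptges left of it in all of them, while the triangle of Pla2g4a lies near 0.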

How the data were processed

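Biotin-labelled RNA of 6 samples was hybridised to Affymetrix mouse arrays, per the labels' protocols. The authors deposited log2 levels, 1 per probe set and array, from RMA, per the submitters' processing notes. Of its version and chip description nothing is given in the sources used here. Groups were taken from sample titles. Of 45101 probe sets, 64 are controls, 34958 had 1 gene symbol in the platform annotation, 932 several and 9160 non-controls none. Symbols were updated by Entrez number with RefSeq of GRCm38.p6 for 34754 probe sets.

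Senescent minus proliferating was fitted with lmFit and eBayes of limma 3.58.1 (R 4.3.3), without covariates, over 18194 genes, each read from its brightest probe set, and again over 45037 probe sets. The threshold was a Benjamini-Hochberg adjusted p of 0.05, and intervals are 95%. On simulated data of 18194 genes (senescent against proliferating, normal noise) the fit recovered 71.6% of 67 genes changed by 0.5, 100% of 67 changed by 1 and 100% of 66 changed by 2, with 9 false calls among 190. Having 3 arrays per group limits the precision. Figures used matplotlib 3.10.9.

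The members, lists and tests were chosen with earlier results of these data known. Named are all members, every called gene of the 8 further lists and the brightest gene of a list without calls. Alternatives covered the probe set read, scaling, filters on dim genes, the variance model, the replicate block, probe set suffixes and each array left out.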

Additional observations from a re-analysis of the deposited data

How the results depend on the processing

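The rise of Ptgs2 kept its call in all 15 alternatives, that of Pla2g4a in 14 and the fall of Ptger4 in 14, and the fall of Ptges did so in 8 of 14. With the mean of a gene's probe sets, 1 member fell, Ptger4, while Ptges lost its call (-0.35), 5 further pathway genes rose, and calls numbered 2 for arachidonate supply, 1 for receptors, 1 for transport and 1 for message stability. With the dimmest probe set, 0 members fell (Ptges at -0.29, Ptger4 at -0.49 from a probe set below background), 1876 genes passed, 937 higher and 939 lower, and 4 further pathway genes rose and 2 fell. Calls were then 2 for arachidonate supply, 0 for receptors, 1 for transport, 0 for transcription factors, 1 for message stability and 0 for cyclic AMP response. Signs turned there for Crem (-0.35), Mboat7 (-0.34), Ptger3 (0.085), Ptgfrn (0.049), Ptgr2 (-0.21) and Sik1 (0.11), none of them passing. The probe sets read there had means below background in both groups for all but Ptgfrn, so their signs carry no reading.

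Centring on genes of middle level left 1 member lower, Ptger4, and Ptges lost its call (-0.55). Scaling to poly-A spike-ins left 1 member higher and 7 lower, 15 member probe sets lower, and 15321 genes called, 175 higher and 15146 lower. Pla2g4a was then 0.18, Hpgd -0.56, Ptges2 -0.76, Ptgis -0.77, Ptger2 -0.71 and Ptgfr -0.78. Of these Hpgd, Ptger2 and Ptgfr lay below background, so their values carry the shift of the scale and no level. On that scale 2 further pathway genes rose and 47 fell. Calls numbered 4 for synthases, 9 for receptors, 10 for the lipoxygenase branch, 7 for transcription factors, 5 for message stability and 6 for cyclic AMP response. Signs turned for Mboat7 (-0.24), Mgll (-0.20), Prxl2b (-0.26) and Ptgr2 (-0.30). The cause of the spike-in difference was not tested.

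Among genes above background, 2 member probe sets were lower and message stability had 1 call. Above the median level, 1 member gene and 2 member probe sets were lower, with 0 calls for synthases, 1 for receptors, 0 for the lipoxygenase branch, 5 for transcription factors and 2 for message stability, and dim genes were not tested there. A robust variance trend gave 2 member probe sets lower, Ptgis at -0.18 and 2 calls for message stability. With the replicate number as a block, 2 members rose and 2 fell, 2 member probe sets were lower and transport had 1 call, and Nr4a1 passed (adjusted p = 0.0346). Same-numbered arrays deviated from their group means with correlations of 0.09, -0.07 and -0.15, so the numbers were not taken to pair the samples.

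With 1 array left out, members called higher stayed at 2 and members called lower ran from 1 to 2, as did member probe sets called lower (2 without proliferating or senescent replicate 1). All genes called ran from 2433 to 3337, with 1128 (without senescent replicate 1) to 1562 higher and 1305 to 1775 lower. Further pathway genes ran from 4 to 12 higher and 6 to 9 lower. Calls ran from 1 to 3 for arachidonate supply, 0 to 1 for synthases, 1 to 3 for transport, 0 to 1 for the lipoxygenase branch, 2 to 4 for transcription factors, 0 to 1 for message stability and 2 to 6 for cyclic AMP response. The change of Ptges ran from -0.75 to -0.39. Of the 18 member probe sets, 9 lay below background on all arrays, which limits what can be read for Hpgd, Ptger2 and Ptgfr.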
